A study of Mus musculus with 24 samples.

Results

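The arrays carried 16181 probes for intergenic noncoding intervals, which are stretches between annotated genes that the array names by their position on the mouse genome build mm9 and by strand (F for forward, R for reverse). These probes stood for 4607 names, each an interval on 1 strand, at 3540 positions. A probe was kept when the scanning software marked its spot as well above background on at least 6 of the 24 arrays, and the brightest kept probe stood for its name. This left 3950 interval names among the 28235 names of every kind that passed the same filter, of 36413 on the array. Group labels did not enter this choice. A probe that was high in only some groups could still be kept, or be the brightest, through those groups.

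Each of the 24 arrays held left ventricle RNA of a different male mouse, taken after the right ventricle had been dissected away, and each of 4 groups had 6 mice. CON is the control genotype, which the labels do not describe further, and mG4H mice carried an inducible transgene, specific to heart muscle cells, for the glucose transporter GLUT4. STZ mice received streptozotocin, which destroys the insulin-producing beta cells of the pancreas, at 55 mg per kg on 5 days in a row, and VEH mice received citrate buffer. The transgene was induced 2 weeks after STZ and for 2 weeks. Genotype and treatment were crossed, which gave CON VEH and CON STZ in the one genotype and mG4H VEH and mG4H STZ in the other. All 4 groups were injected, brothers were spread over the groups without a record of which mice they were, and the inducing agent is not named in the sources used here.

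Long noncoding RNAs are transcripts that are not translated into protein, and those that arise between protein-coding genes are called intergenic. Many are made by RNA polymerase II, spliced and given a poly(A) tail like messenger RNAs, and they are typically scarcer than messenger RNAs and more restricted to a tissue. Some are known to act on chromatin or on neighbouring genes, and for most no role is known.

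The intervals that the results turn on are shown first by their probes, each printed 5′ to 3′ in the sense of its named strand, as the array files give it. On chromosome 10, 2 overlapping F intervals hold 2310015B20Rik, a gene listed as protein-coding. Their probes are set beside that gene's probe because all 3 read nearly the same place, and capitals mark the 37 bases that they share.
chr10:69669025-69686275 F, probe at chr10:69682342-69682401: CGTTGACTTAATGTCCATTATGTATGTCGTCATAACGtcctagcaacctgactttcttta
chr10:69679644-69682458 F, probe at chr10:69682331-69682390: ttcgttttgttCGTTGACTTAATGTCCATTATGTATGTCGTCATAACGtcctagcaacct
2310015B20Rik F, probe at chr10:69682319-69682378: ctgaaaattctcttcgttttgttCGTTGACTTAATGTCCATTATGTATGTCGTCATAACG

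On chromosome 15, 2 R intervals that begin at the same base hold the gene of Snord123, a small nucleolar RNA. Capitals mark the 19 bases that their probes share with the Snord123 probe.
chr15:32167516-32174427 R, probe at chr15:32170404-32170463: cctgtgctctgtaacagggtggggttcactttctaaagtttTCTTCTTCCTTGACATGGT
chr15:32167516-32174417 R, probe at chr15:32170366-32170425: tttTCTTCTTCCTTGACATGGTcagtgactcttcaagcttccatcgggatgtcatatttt
Snord123 R, probe at chr15:32170363-32170422: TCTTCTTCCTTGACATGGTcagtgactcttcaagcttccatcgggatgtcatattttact

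For chr2:157838320-157853495, which is on the array on both strands, capitals mark 29 bases of the F probe and of the R probe that are the reverse complement of each other, so that the strands are read at the same place.
chr2:157838320-157853495 F, probe at chr2:157848613-157848672: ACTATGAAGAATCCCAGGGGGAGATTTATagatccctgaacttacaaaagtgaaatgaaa
chr2:157838320-157853495 R, probe at chr2:157848582-157848641: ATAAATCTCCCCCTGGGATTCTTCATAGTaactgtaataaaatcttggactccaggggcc

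The interval chr6:50339188-50409363 F differed between the genotypes at 1 of its 3 kept probes, the middle one of those printed. They are given whole, with no part in capitals, since the other kept probes of the interval did not show the difference.
chr6:50339188-50409363 F, probe at chr6:50400013-50400072: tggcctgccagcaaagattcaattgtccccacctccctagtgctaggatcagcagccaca
chr6:50339188-50409363 F, probe at chr6:50405629-50405688: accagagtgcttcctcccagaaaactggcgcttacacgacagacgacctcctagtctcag
chr6:50339188-50409363 F, probe at chr6:50406155-50406214: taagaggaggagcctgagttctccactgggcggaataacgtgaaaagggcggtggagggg

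After STZ in CON mice, chr17:10057283-10075014 F had the largest rise and chr19:36699712-36763966 R the smallest p. All their kept probes are printed, without capitals, since these lie far apart within each interval.
chr17:10057283-10075014 F, probe at chr17:10057438-10057497: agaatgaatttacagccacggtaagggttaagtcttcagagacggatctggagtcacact
chr17:10057283-10075014 F, probe at chr17:10069540-10069599: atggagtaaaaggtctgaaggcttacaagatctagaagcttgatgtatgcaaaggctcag
chr17:10057283-10075014 F, probe at chr17:10074943-10075002: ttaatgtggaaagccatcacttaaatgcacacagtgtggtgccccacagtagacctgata
chr19:36699712-36763966 R, probe at chr19:36699713-36699772: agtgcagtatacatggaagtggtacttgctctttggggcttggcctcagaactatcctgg
chr19:36699712-36763966 R, probe at chr19:36760042-36760101: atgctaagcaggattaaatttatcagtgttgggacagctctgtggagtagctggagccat
chr19:36699712-36763966 R, probe at chr19:36763874-36763933: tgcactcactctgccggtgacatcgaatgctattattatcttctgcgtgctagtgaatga

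The letters AATAAA precede the cleavage site of many polyadenylated transcripts. They stood in 3.92% of the 16181 interval probes and in 13.2% of the 30842 probes of symbol-named genes, each 60 bases long. Their reverse complement TTTATT stood in 3.02% and 4.17%. A match describes the letters of a probe and shows no cleavage site. In the 2 overlapping F intervals at Ttll7 on chromosome 3, the kept probe farthest along each interval holds AATAAA, in capitals. These probes overlap, and the letters in both are the same occurrence on the chromosome.
chr3:146629425-146649125 F, probe at chr3:146646898-146646957: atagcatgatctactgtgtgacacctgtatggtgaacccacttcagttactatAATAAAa
chr3:146645022-146646977 F, probe at chr3:146646918-146646977: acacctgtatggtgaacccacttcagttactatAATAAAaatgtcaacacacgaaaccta

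Intervals were detected less often than genes with a symbol, and they were measured less precisely. Of the interval probes, 60.2% passed the filter, against 79.9% of the probes of symbol-named genes, and 32.1% against 63.7% were well above background on all 24 arrays. The share of interval probes above background ran from 39.7% to 66.2% per array, with medians of 44.5%, 55.4%, 58.6% and 49.6% on slides 1 to 4. Values below are log2 processed signals relative to each array's 75th percentile, so that 0 is that percentile. On this scale the median residual standard deviation between mice was 0.533 over the kept intervals and 0.265 over the kept symbol-named genes. The median standard error (SE) of a difference between a pair of groups was 0.297 and 0.153.

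Many interval names overlap one another, so that names are not independent. The 3950 kept names fall into 2970 separate stretches, and 1678 of them share a stretch with another. Their lengths had quartiles of 2.17 and 27.0 kb, and over all 4607 names the length ran from 62 bp to 7.13 Mb, with a median of 10.7 kb. Kept names were found on each chromosome listed, from 86 on chromosome 19 to 296 on chromosome 1. The kept share was lowest on chromosome X, at 78.1%, and highest on chromosome 11, at 90.8%. All 16063 probes with a position lay inside the interval of their name and ran in its named direction, and 118 probes have no position.

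The name intergenic was not borne out everywhere by the array's own gene probes. A probe of a symbol-named gene lay on the same strand inside 400 of the 3950 kept intervals (10.1%), and on either strand inside 675 (17.1%). The probe that stood for the name overlapped such a gene's probe by at least 1 base in 73 names (1.85%).

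Over the whole series, the 75th percentile of the signal lay between 370 and 583, and precision is limited by how many arrays there are. Each group had 1 or 2 mice on each of slides 1, 2 and 3. Slide 4 carried CON VEH replicate 3 and mG4H VEH replicate 3 alone and was scanned on another day. All 8 cardiomyocyte markers were above background on all 24 arrays, as the left ventricle label asks. After STZ in CON, 1 of 5 atrial markers rose (Nppa, for atrial natriuretic peptide) and 1 of 3 measured skeletal muscle markers fell (Ckm, for muscle creatine kinase, which heart muscle also makes). The median log2 change of the 5 atrial markers after STZ in CON was 0.06, so a rise of the whole list was not shown. The summed linear level of the atrial markers, in units of the 75th percentile, was 34.9 to 47.4 in CON VEH, 83.2 to 361.0 in CON STZ, 21.6 to 105.0 in mG4H VEH and 61.7 to 521.0 in mG4H STZ. That of the 4 white fat markers, none of which passed the test, was 233.0 to 303.0, 317.0 to 472.0, 222.0 to 296.0 and 262.0 to 412.0 in the same order. That of the 3 erythroid markers, none of which passed, was 324.0 to 499.0, 209.0 to 391.0, 382.0 to 573.0 and 31.1 to 1020.0, the widest range being that of mG4H STZ. The part of these shifts in the changes of the intervals was not tested. The probe of Slc2a4, the gene for GLUT4, differed between mG4H and CON by -0.20 (SE 0.16) under VEH and by 0.20 (SE 0.16) under STZ, each with adjusted p = 1.0 by limma, so it does not check the genotype labels. Whether that probe reads the transgene is not given in the sources used here.

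The first comparison asks how diabetes changed these transcripts in the heart of the control genotype. After STZ, 45 of the 3950 intervals changed in CON mice, 21 upwards and 24 downwards (limma, Benjamini-Hochberg adjustment over all 28235 names, threshold 0.05). That is 1.14% of the intervals, and 3.96% of all names tested passed, so intervals were called less often than the background. Rises made up 1.66% and falls 2.3% of all names, and 0.532% and 0.608% of the intervals. At an unadjusted p under 0.05 the counts were 164 intervals (4.15%), against 14.3% of all names. Rises ran from 0.42 to 2.40 and falls from -1.07 to -0.28 on the log2 scale, and 9 changes were at least 2-fold. In RNA of whole ventricle, fewer cells of a type and less RNA per cell cannot be told apart.

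The 45 names occupy 39 separate stretches, with 5 names each on chromosomes 1, 3 and 4 and none on chromosomes 16 and 18. In 28 of them the 6 CON STZ values lay all above or all below the 6 CON VEH values. Among all intervals that separation was found in 43 (1.09%), against 4.59% of all names. Of the 97 further kept probes of 39 called names, 86 had a difference of the same sign as the probe that stood for the name, and 41 of the 97 passed the test in a fit of single probes. Some of the 97, such as those of chr17:10057283-10075014 F, passed the filter mainly through STZ arrays, which favours a rise. Others, as on chromosome 15, overlap the probe that stood for the name. These counts are therefore a description and not separate support. With arrays scaled to their median in place of the 75th percentile, 3 of the 45 passed, of which 2 were rises (66.7%, against 46.7%): chr17:10057283-10075014 F, chr19:36699712-36763966 R and chr2:77152807-77155092 R, with adjusted p = 0.0303, 0.0346 and 0.0382 by limma. Without slide 4, 25 intervals passed, 13 upwards and 12 downwards. The largest falls of the count without 1 mouse were to 22 (CON VEH replicate 3), 28 (CON VEH replicate 4 or 5), 29 (CON VEH replicate 6), 23 (CON STZ replicate 1) and 26 (CON STZ replicate 5). Leaving out any other CON mouse but CON STZ replicate 6 also lowered it, by less.

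The largest rise was that of chr17:10057283-10075014 F, an interval of 17.7 kb. The nearest symbol-named gene that passed the filter is Qk, for an RNA-binding protein, whose probe lies 320 kb away on the other strand. The lowest, median and highest values were -5.34, -4.74 and -4.46 in CON VEH and -3.82, -2.23 and -1.76 in CON STZ. Every STZ mouse lay above every VEH mouse, and the spot was above background on 5 of 6 VEH and 6 of 6 STZ arrays. The rise was 2.40 (SE 0.48), or 5.27-fold, with adjusted p = 0.00589 by limma. The other 2 kept probes were above background on 0 of 6 CON VEH arrays, and on 6 and 5 of 6 CON STZ arrays, so no difference is given for them. With the normexp background correction, which compresses dim values, the rise was 0.90 and the call held. Qk differed by -0.06 (SE 0.12, adjusted p = 0.978).

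Next in size was chr3:30754871-30776438 F, 19.5 kb from Gpr160, which encodes an orphan G protein-coupled receptor. The interval had lowest, median and highest values of -5.71, -5.28 and -4.94 in CON VEH and -4.18, -3.60 and -2.66 in CON STZ, without overlap. It was above background on only 2 of 6 CON VEH arrays and on 6 of 6 CON STZ arrays, so most of the VEH values lie at the background. On these values it rose by 1.71 (SE 0.43), with adjusted p = 0.0254 by limma. Gpr160, on the same strand, rose by 1.62 (SE 0.37, adjusted p = 0.0149). The interval's call was lost without CON VEH replicate 1 or 3 (adjusted p = 0.0585 and 0.0553, limma) and without CON STZ replicate 1 or 3 (0.0588 and 0.0619). It was also lost with normexp, where the difference was 0.42.

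**Figure D1:**
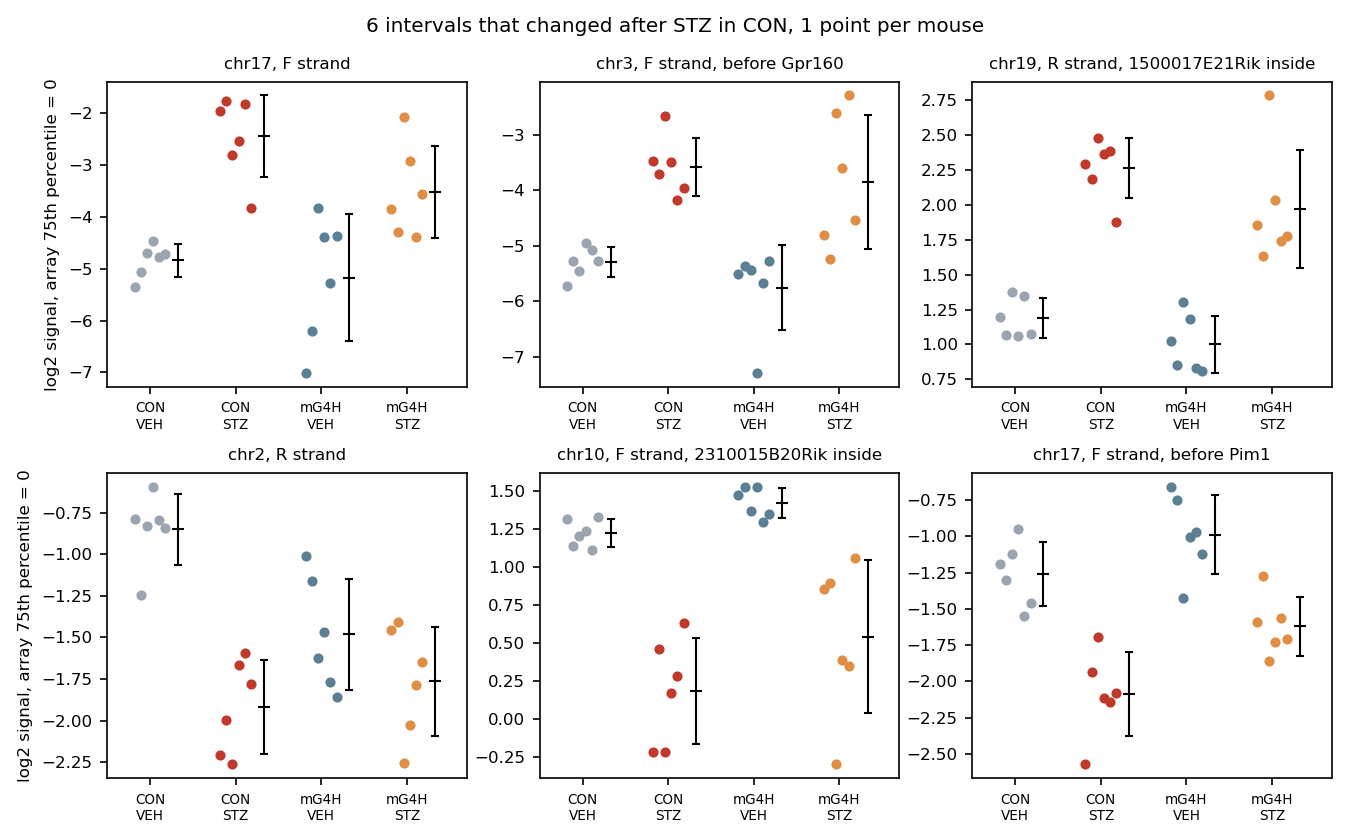
Log2 signal relative to each array's 75th percentile (y axis) in the 4 groups (x axis) for 6 intervals that changed after STZ in CON. Each point is 1 mouse, and the marker beside the points is the group mean with its SD (n = 6). In CON the STZ points lie apart from the VEH points in each panel, above them for 3 intervals and below them for the other 3.

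In 16 of the 45 intervals, the array has a probe of a symbol-named gene on the same strand inside the interval. The smallest p among them belonged to chr19:36699712-36763966 R, an interval of 64.3 kb that contains 1500017E21Rik, listed as a long noncoding RNA. Its lowest, median and highest values were 1.06, 1.14 and 1.37 in CON VEH and 1.88, 2.33 and 2.48 in CON STZ, and the groups did not overlap. The interval rose by 1.08 (SE 0.15), or 2.11-fold, with adjusted p = 0.00032 by limma. 1500017E21Rik rose by 0.90 (SE 0.12, adjusted p = 0.000115). Of the other kept probes of the interval, 1 rose by 0.91 and the one at its far end differed by -0.29 (SE 0.56), above background on 14 of 24 arrays. With the mean of its kept probes in place of the brightest, the difference was 0.56 and did not pass.

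Another interval with a gene's probe inside it that rose was chr10:83181374-83249774 F, which holds the probe of 1500009L16Rik. The lowest, median and highest values were 1.31, 1.43 and 1.61 in CON VEH and 1.97, 2.32 and 2.50 in CON STZ, without overlap. The rise was 0.80 (SE 0.13), or 1.74-fold, with adjusted p = 0.00125 by limma, and all 5 kept probes differed in the same direction, by 0.52 to 0.80. 1500009L16Rik, listed as protein-coding, differed by 0.63 (SE 0.20) and did not pass (adjusted p = 0.0889).

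The pair of R intervals over Snord123 moved together, on probes that share bases. chr15:32167516-32174427 R had lowest, median and highest values of 1.49, 1.57 and 1.67 in CON VEH and 2.02, 2.15 and 2.26 in CON STZ. It rose by 0.56 (SE 0.08, adjusted p = 0.00056, limma), with no overlap between the groups. chr15:32167516-32174417 R rose by 0.54 (SE 0.11, adjusted p = 0.00784), with 5 of the 6 CON STZ values in the fit. Snord123 differed by 0.39 (SE 0.12), which did not pass (adjusted p = 0.0685). Its probe shares 57 bases with the shorter interval's probe and 19 with that of the longer, so these are not separate measurements of a transcript.

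The probes of 4 further called intervals also overlap that of a gene. Where most bases are shared, the values are not separate measurements. The probe of chr1:175653557-175671940 R overlaps that of AI607873 over all 60 bases, and the interval rose by 0.63 (SE 0.16, adjusted p = 0.0241, limma) while the gene rose by 0.59 (SE 0.16, adjusted p = 0.0354). Its groups overlapped, from 0.18 to 0.61 (median 0.42) in CON VEH and from 0.59 to 1.52 (median 1.06) in CON STZ, and leaving out 1 mouse lost the call in 4 of 24 cases (adjusted p up to 0.0742). The probe of chr4:21683562-21694350 R shares only 8 of its 60 bases with that of 2610029I01Rik, and they fell by 0.39 and 0.42. The remaining 2 are the chromosome 10 intervals at 2310015B20Rik, described with the falls. In all, 6 of the 73 intervals whose probe overlaps a gene's probe were called (8.22%), beside 3.96% of all names. These 6 include the overlapping pairs on chromosomes 10 and 15.

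chr17:15132576-15147002 R, which holds Gm3448, was above background on 1 of 6 CON VEH and 5 of 6 CON STZ arrays, and had 1 kept probe. Measured mostly against background, it rose by 1.26 (SE 0.32, adjusted p = 0.0272, limma), and Gm3448 rose by 0.80 (SE 0.23, adjusted p = 0.0487). The interval's lowest, median and highest values were -6.48, -5.41 and -4.91 in CON VEH and -5.12, -4.09 and -3.70 in CON STZ. The groups overlapped. Leaving out 1 mouse lost the call in 6 of 24 cases, with adjusted p up to 0.0771 (without CON STZ replicate 1), and normexp lost it with a difference of 0.24.

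A further 3 rises lay at Ttll7, which encodes a tubulin polyglutamylase. chr3:146515333-146557069 F, 85.6 kb from the gene's probe, had lowest, median and highest values of -0.86, -0.67 and -0.30 in CON VEH and -0.18, 0.26 and 0.61 in CON STZ. It rose by 0.89 (SE 0.19, adjusted p = 0.0105, limma) without overlap. Of the other 2 intervals, which overlap each other, chr3:146629425-146649125 F holds the gene's probe and chr3:146645022-146646977 F lies 2.31 kb from it. They rose by 0.68 (SE 0.16, adjusted p = 0.019, limma) and by 0.69 (SE 0.19, adjusted p = 0.0382). In these also the groups stood apart, at 2.37 to 2.71 against 2.97 to 3.69 for the former and at 2.07 to 2.52 against 2.79 to 3.46 for the latter. Ttll7 itself differed by 0.78 (SE 0.23) and did not pass (adjusted p = 0.0612). The call of chr3:146645022-146646977 F was lost in 11 of the 24 fits without 1 mouse, with adjusted p up to 0.0909 (without CON STZ replicate 3).

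chr1:183783306-183834531 R lies 0.045 kb from the probe of Enah, on the same strand, which encodes an actin regulator. The interval was at -0.24, -0.12 and 0.03 (lowest, median and highest) in CON VEH and at 0.08, 0.71 and 1.0 in CON STZ, without overlap. The interval rose by 0.73 (SE 0.19, adjusted p = 0.0276, limma) and Enah by 0.46 (SE 0.11, adjusted p = 0.0214). The interval's call was lost in 7 of the 24 fits without 1 mouse, with adjusted p up to 0.0756 (without CON STZ replicate 1), and with the mean of its kept probes, at 0.42.

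Rises were also found where the nearest gene kept by the filter did not pass the test. chr13:113555055-113564665 F lay 26.3 kb from Slc38a9, which encodes a lysosomal amino acid transporter. The lowest, median and highest values were -3.93, -3.62 and -3.42 in CON VEH and -2.82, -2.52 and -2.25 in CON STZ, without overlap. The interval rose by 1.10 (SE 0.19, adjusted p = 0.00219, limma), both other kept probes rose, by 0.95 and 1.30, and Slc38a9 differed by -0.30 (SE 0.17, adjusted p = 0.502). With normexp the rise was 0.49. chr5:107504871-107507830 F, 28.0 kb from the oppositely directed Tgfbr3, for a co-receptor of transforming growth factor beta, rose by 1.05 (SE 0.25, adjusted p = 0.016). Its groups overlapped, at -4.29 to -3.49 in CON VEH and -3.76 to -2.34 in CON STZ, and Tgfbr3 differed by 0.21 (SE 0.24, adjusted p = 0.898). A smaller rise, of chr11:82588507-82594501 R, 9.13 kb from Zfp830, was 0.48 (SE 0.11, adjusted p = 0.0138). With normexp neither of these passed, with differences of 0.39 and 0.27.

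The largest fall was that of chr2:77152807-77155092 R, an interval of 2.29 kb. The nearest symbol-named gene that passed the filter is Zfp385b, for a zinc finger protein, whose probe lies 93.8 kb from the interval. The interval's lowest, median and highest values were -1.25, -0.81 and -0.59 in CON VEH and -2.26, -1.89 and -1.60 in CON STZ. Every STZ mouse lay below every VEH mouse. The interval fell by 1.07 (SE 0.17, adjusted p = 0.000848, limma), a level 2.10-fold lower, and both other kept probes fell, by 1.08 and 1.44. Zfp385b differed by 0.78 (SE 0.39, adjusted p = 0.369).

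At 2310015B20Rik on chromosome 10, the 2 overlapping F intervals and the gene fell by nearly the same amount, on probes that share 37 bases. chr10:69669025-69686275 F had lowest, median and highest values of 1.12, 1.22 and 1.34 in CON VEH and -0.22, 0.23 and 0.63 in CON STZ, without overlap. It fell by 1.04 (SE 0.18, adjusted p = 0.00183, limma), and its 5 kept probes all fell, by 0.96 to 1.13. chr10:69679644-69682458 F fell by 1.03 (SE 0.19, adjusted p = 0.00277) and 2310015B20Rik by 1.07 (SE 0.22, adjusted p = 0.00648).

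chr17:29571806-29603008 F lies 27.7 kb from Pim1, which encodes a serine/threonine kinase. Its lowest, median and highest values were -1.55, -1.25 and -0.95 in CON VEH and -2.57, -2.10 and -1.69 in CON STZ, without overlap. It fell by 0.83 (SE 0.14, adjusted p = 0.00211, limma), while Pim1 differed by -0.13 (SE 0.22, adjusted p = 0.962). Its other kept probes ranged from -1.15 to -0.46, of which the smaller difference did not pass. A pair of overlapping F intervals near Pdp1, for a phosphatase that activates pyruvate dehydrogenase, also fell, by 0.77 (SE 0.14, adjusted p = 0.00277) for chr4:11893711-11921443 and by 0.74 (SE 0.15, adjusted p = 0.00598) for chr4:11899775-11931875. In the former, CON VEH lay between 0.50 and 1.02 and CON STZ between -0.34 and 0.27. The probes that stood for this pair share most of their bases, so the falls are not separate measurements. Pdp1, on the other strand, differed by -0.22 (SE 0.13, adjusted p = 0.533).

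The fall of chr2:157838320-157853495 F rested on 1 of its kept probes. Its lowest, median and highest values were -2.15, -1.75 and -1.71 in CON VEH and -3.70, -2.42 and -2.32 in CON STZ, and the lowest of these, CON STZ replicate 5, stood far from the other 5 STZ mice. The fall was 0.80 (SE 0.18, adjusted p = 0.013, limma), and the call held without that mouse, since adjusted p was at most 0.0304 in the fits without 1 mouse. The other kept probes differed by -0.10 and 0.22, and the mean of the kept probes by -0.23, which did not pass. With normexp the fall was 0.47. Rprd1b, 15.7 kb away on the same strand, differed by 0.01 (SE 0.08, adjusted p = 0.996).

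Weaker falls included a pair of overlapping F intervals on chromosome 8, of which the longer holds Gm2694, listed as a long noncoding RNA. chr8:90048940-90049461 F fell by 0.65 (SE 0.17, adjusted p = 0.0334, limma) and chr8:89996710-90049453 F by 0.63 (SE 0.16, adjusted p = 0.0297), with overlapping groups in both. With the slide as a block neither passed (adjusted p = 0.0548 and 0.0531), and leaving out 1 mouse lost the call in 6 and 5 of 24 cases. The probes that stood for this pair also overlap, over a smaller part of their bases. Gm2694 differed by -0.04 (SE 0.24, adjusted p = 0.994). chrX:120963050-120963598 F, with 1 kept probe, fell by 0.63 (SE 0.16, adjusted p = 0.031), and its call was lost in 6 of 24 such cases (adjusted p up to 0.078).

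Neighbouring genes were then compared across the intervals. A symbol-named gene that passed the filter lay within 50 kb of 2893 intervals (73.2%), and it was itself called after STZ in CON for 176 of these (6.08%). Of the 45 called intervals, 34 had such a gene. In 9 of these 34 pairs the gene was called, each time in the same direction as the interval. 2310015B20Rik and AI607873 each recur among the 9 pairs. Direction was shared by 26 of the 34 pairs and by 53.9% of all 2893 pairs. The 9 include the pairs above whose probes overlap or whose gene lies inside the interval, so they are not 9 separate observations of neighbours.

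**Figure D2:**
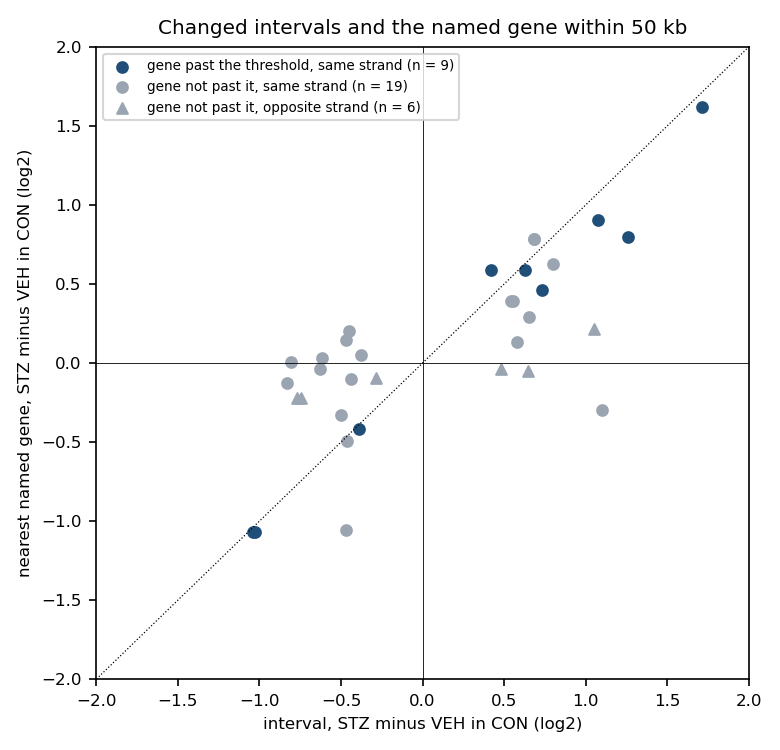
STZ effect in CON of the nearest symbol-named gene that passed the filter (y axis, log2) against that of the interval (x axis, log2), for the 34 called intervals with such a gene within 50 kb. Colours give whether the gene was called and marker shapes its strand relative to the interval. In 9 pairs the gene was called, always on the same strand. In 19 pairs it lay on the same strand and was not called, and in 6 it lay on the opposite strand. Some genes recur in several pairs. The called genes fall in the quadrants where both values have the same sign.

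The next comparison asks what STZ did in mice with the GLUT4 transgene. The effect is between the mG4H arrays, but its test takes the spread between mice from all 24 arrays, so the CON arrays also bear on the calls. In mG4H, 4 of the 3950 intervals passed, 2 upwards and 2 downwards, where 0.266% of all names passed, 0.0992% upwards and 0.166% downwards (limma). Leaving out 1 mouse moved the count to 2 in 16 of 24 cases, to 8 without CON STZ replicate 3 and to 20 without mG4H STZ replicate 2. At an unadjusted p under 0.05 there were 196 intervals (4.96%), against 14% of all names. All 4 were also called in CON. None of the 4 passed with arrays scaled to their median or in a fit of the mG4H arrays alone. chr19:36699712-36763966 R rose by 0.97 (SE 0.15, adjusted p = 0.00869), from 0.81, 0.94 and 1.30 in mG4H VEH (lowest, median and highest) to 1.63, 1.82 and 2.79 in mG4H STZ, without overlap. With median scaling it differed by 0.86 (adjusted p = 0.328, limma). 1500017E21Rik rose by 0.81 (SE 0.12, adjusted p = 0.00869). With the mean of its kept probes the interval differed by 0.57 and did not pass. chr15:32167516-32174427 R rose by 0.52 (SE 0.08, adjusted p = 0.00895), from 1.34, 1.55 and 1.72 to 1.82, 2.04 and 2.35, also without overlap. With median scaling the difference was 0.41 (adjusted p = 0.927, limma).

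The 2 falls in mG4H were those of the overlapping chromosome 10 intervals, each with adjusted p near the threshold. chr10:69669025-69686275 F went from 1.30, 1.43 and 1.53 in mG4H VEH to -0.30, 0.62 and 1.06 in mG4H STZ, a fall of 0.88 (SE 0.18, adjusted p = 0.0442, limma). chr10:69679644-69682458 F fell by 0.88 (SE 0.19, adjusted p = 0.0472). With the slide as a block neither passed (adjusted p = 0.0551 and 0.0699), and the calls were lost in 17 and 19 of the 24 fits without 1 mouse (adjusted p up to 0.103 and 0.12). With median scaling the differences were -0.99 for both (adjusted p = 0.477 and 0.506, limma). 2310015B20Rik differed by -0.93 (SE 0.22) and did not pass (adjusted p = 0.0657).

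For the 45 intervals called in CON, the difference between mG4H STZ and mG4H VEH had the same sign in all 45, and 32 had an unadjusted p under 0.05. Over all 3950 intervals the sign was shared in 64.2%. The mG4H value was a median of 0.679 times the CON value over the 45, which were selected for being large in CON. Across intervals, the effects in the genotypes had a Pearson correlation of 0.382 (n = 3950) and of 0.951 among the 45, as a description, since intervals overlap and the arrays share slides.

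**Figure D3:**
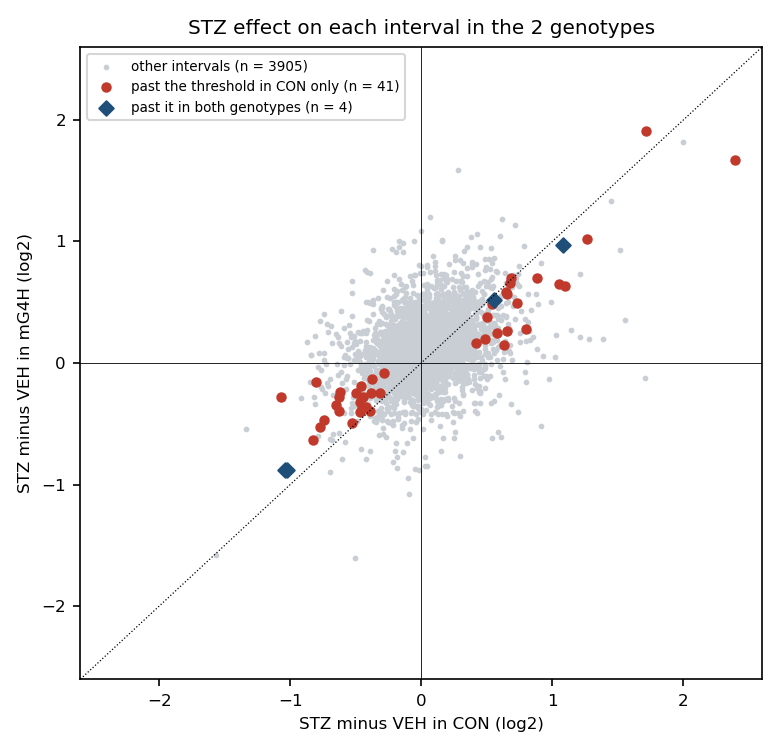
STZ effect in mG4H (y axis, log2) against STZ effect in CON (x axis, log2) for the 3950 kept intervals, 1 point each. Intervals called in CON alone are red, the 4 called in both genotypes are blue diamonds, and the dotted line marks equal effects. These 45 points all lie where both effects have the same sign.

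The difference of the STZ effects between the genotypes was tested directly and passed in 0 of the 3950 intervals, as in 0.0% of all names (limma). At an unadjusted p under 0.05 there were 21 intervals (0.532%), and 1.77% of all names. The smallest of these p belonged to chr2:77152807-77155092 R, where the mG4H effect was -0.28 and the CON effect -1.07, a difference of 0.79 (unadjusted p = 0.00319, adjusted p = 1.0). In mG4H its lowest, median and highest values were -1.86, -1.55 and -1.01 under VEH and -2.25, -1.72 and -1.41 under STZ, and the groups overlapped. For chr10:83181374-83249774 F the difference was -0.52 (unadjusted p = 0.00982, adjusted p = 1.0). Another of the 5 smallest p belonged to chr4:140609589-140614789 R, for which no difference is given, since it was above background on 0 of 6 arrays in CON VEH and in mG4H STZ. The remaining ones were chr3:38320928-38341869 R, with a difference of 0.33 (unadjusted p = 0.0112, limma), and chr7:13533925-13544525 F, with -0.28 (unadjusted p = 0.0139, limma). Neither passed after adjustment. A p that misses the threshold does not show that the effects were alike.

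The genotypes were then compared under each treatment, to ask what the transgene changed. Under VEH, 1 of the 3950 intervals differed between mG4H and CON, where 0.0815% of all names passed (limma). Under STZ it was also 1, where 0.0106% passed. At an unadjusted p under 0.05 there were 43 of the 3950 intervals (1.09%) under VEH, against 2.87% of all names. Under STZ there were 50 (1.27%), against 3.55% of all names. The same interval passed both times, chr6:50339188-50409363 F, of 70.2 kb. It lies 92.1 kb from Osbpl3, which encodes an oxysterol-binding protein.

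The lowest, median and highest values of chr6:50339188-50409363 F were -3.31, -2.86 and -2.42 in CON VEH and -2.01, -1.58 and -1.34 in mG4H VEH. Under STZ they were -3.43, -2.66 and -2.21 in CON and -1.77, -1.47 and -1.03 in mG4H. Under both treatments every mG4H mouse lay above every CON mouse. The interval was higher in mG4H by 1.23 (SE 0.21), or 2.35-fold, under VEH (adjusted p = 0.0103, limma) and by 1.31 (SE 0.21), or 2.48-fold, under STZ (adjusted p = 0.0185). On slides 1 to 3 the difference was 1.31, 1.91 and 1.15 under VEH and 1.65, 1.18 and 1.12 under STZ.

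Only the probe at chr6:50405629-50405688 carried this difference, and it was the brightest through its mG4H values. In CON its means were -2.86 under VEH and -2.75 under STZ, below the -2.32 and -2.35 of the probe at chr6:50400013-50400072. In mG4H they were -1.63 and -1.44, above the -2.39 and -2.29 of that probe. The kept probes on either side differed by -0.07 and -0.16 under VEH and by 0.07 and -0.01 under STZ, although both were above background on all 24 arrays, and the other 3 probes of the interval were above background on none. Osbpl3 differed by -0.05 under VEH and by 0.07 under STZ. The call under STZ was lost without CON STZ replicate 1 (adjusted p = 0.0878, limma), 4 (0.0537) or 6 (0.0595), and without mG4H STZ replicate 3 (0.0653) or 4 (0.0565). Both calls were lost with the mean of the kept probes, where the differences were 0.34 under VEH and 0.46 under STZ, and with normexp, at 0.69 and 0.79. The call under STZ was also lost with the replicate number as a block (adjusted p = 0.0515, limma) and in a fit of the CON STZ and mG4H STZ arrays alone (0.554).

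**Figure D4:**
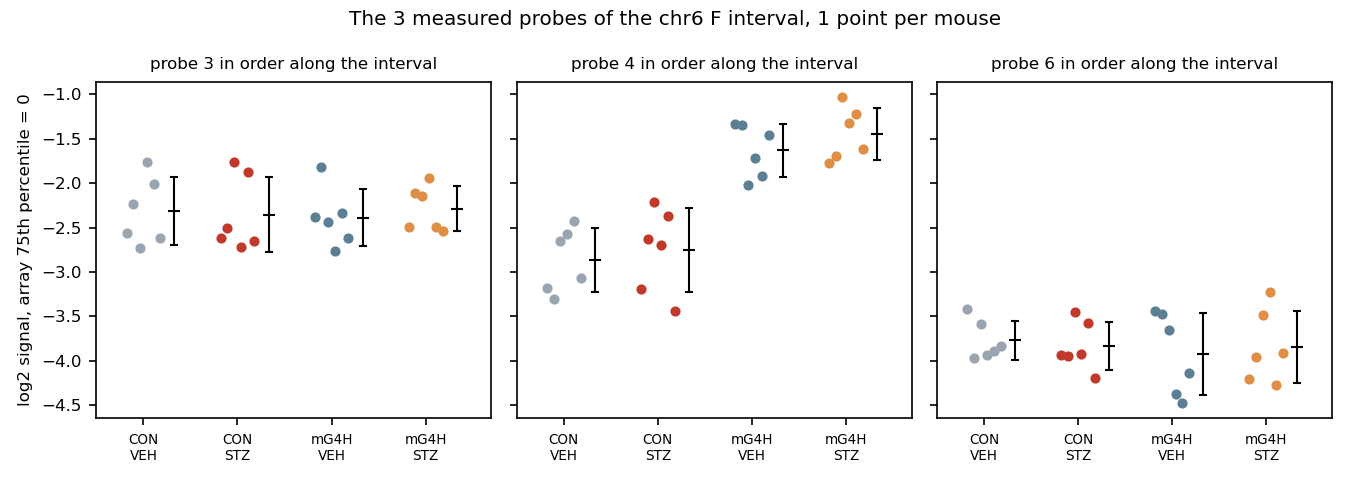
Log2 signal relative to each array's 75th percentile (y axis) of the 3 kept probes of the chromosome 6 interval in the 4 groups, 1 point per mouse with the group mean and SD (n = 6). Groups of 1 genotype stand apart from the other at the middle probe, where CON lies between -3.43 and -2.21 and mG4H between -2.01 and -1.03. At the other kept probes the 4 groups overlap.

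The last comparison sets the strands of an interval against each other. Of the 3540 intervals, 1067 were on the array on both strands, and 881 of these (82.6%) were kept on both, 81 on F only, 83 on R only and 22 on neither. Among the 2473 intervals with 1 strand on the array, 2024 (81.8%) were kept, and in all 1974 F and 1976 R names were kept. In 510 of the 881, the probe of each strand was above background on all 24 arrays. Detection was therefore about as frequent on F as on R.

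After STZ in CON, 9 of the 881 intervals were called on F, 12 on R and 0 on both. The 21 called names are 1.19% of these 1762, beside 1.14% of all intervals and 3.96% of all names. The effects on the strands had a Pearson correlation of 0.0378 across the 881 intervals, as a description, and their signs were shared in 51.9%. The difference between the F and the R effect was tested within each mouse, in a fit of 29116 features that adds the 881 differences to the table. It passed for 4 intervals after STZ in CON, where 3.7% of all features passed, for 0 after STZ in mG4H (0.213%), for 1 between the genotypes under VEH (0.0824%) and under STZ (0.0137%), and for 0 in the difference of STZ effects (0.0%). Without 1 mouse the 4 became 2 (CON VEH replicate 1 or 4, CON STZ replicate 2) or 1 (CON VEH replicate 3, CON STZ replicate 1 or 5).

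In chr10:83181374-83249774, F rose by 0.80 while R differed by 0.05 (SE 0.14, adjusted p = 0.984), and the strands differed by 0.75 (SE 0.19, adjusted p = 0.0277, limma). The F and R probes are separated by 40004 bases, so the strands are not read at the same place. On R, CON VEH lay between -1.01 and -0.26 and CON STZ between -0.85 and -0.46. In chr2:157838320-157853495, whose probes read the same 29 bases, F fell by 0.80 while R differed by 0.15 (SE 0.16), a difference of -0.95 (SE 0.26, adjusted p = 0.039). The R values were -3.20 to -2.24 in CON VEH and -3.09 to -2.41 in CON STZ, so the groups overlapped. The other kept R probes differed by -0.33 and -0.06, and the other kept F probes by -0.10 and 0.22. The strand difference is therefore that of the probes that stood for the names, and was not shown for the whole interval.

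The other 2, named because there were few, were intervals in which neither strand passed on its own, with F and R probes 0.848 kb apart on chromosome 4 and 52.4 kb apart on chromosome 9. In chr4:119967625-119978325 the effect was -0.38 on F (adjusted p = 0.171, limma) and 0.11 on R, and the strands differed by -0.49 (SE 0.11, adjusted p = 0.0137). In chr9:113648970-113715170 it was -0.18 on F and 0.40 on R, a difference of -0.58 (SE 0.15, adjusted p = 0.0344). The interval that differed between the genotypes, chr6:50339188-50409363, did so on F and not on R, with a strand difference of 1.33 (SE 0.22, adjusted p = 0.0123) under VEH and 1.34 (SE 0.22, adjusted p = 0.0405) under STZ. The former call was lost without CON VEH replicate 4 or mG4H VEH replicate 4, and the latter in 17 of the 24 fits without 1 mouse. Its F and R probes lie 53.4 kb apart, and its R values differed between genotypes by -0.10 and -0.02.

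**Figure D5:**
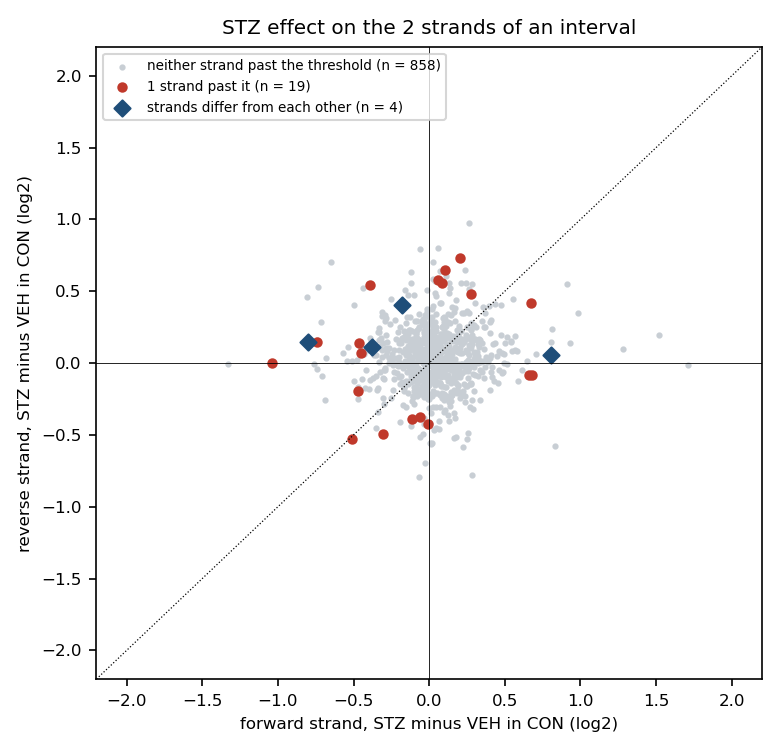
STZ effect in CON on the R strand (y axis, log2) against that on the F strand (x axis, log2) for the 881 intervals kept on both strands, 1 point each. Red points have 1 called strand, diamonds mark the 4 intervals whose strands differed by the test, and the dotted line marks equal effects. The points show no common slope, with a Pearson correlation of 0.0378.

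For reference, long noncoding RNAs that have a gene symbol were taken from a list of 44 names, of which 26 were measured. H19, an imprinted noncoding RNA that is abundant before birth, was the one that passed, after STZ in both genotypes, and 0 of the 26 passed between genotypes (limma). Of all names, 3.96% passed after STZ in CON and 0.266% in mG4H, so 1 of 26 in CON is near the background share. Between genotypes, 0.0815% of all names passed under VEH and 0.0106% under STZ. In CON, H19 went from 1.93, 2.51 and 2.95 (lowest, median and highest) under VEH to 3.13, 3.50 and 4.02 under STZ, without overlap. It rose by 1.08 (SE 0.24, adjusted p = 0.0131, limma) in CON and by 1.17 (SE 0.24, adjusted p = 0.0454) in mG4H. Neither call held with arrays scaled to their median, and the one in mG4H was lost with the slide as a block. The median difference after STZ in CON was 0.18 over the 26, 0.04 over the 3950 intervals and 0.02 over the kept symbol-named genes.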

How the data were processed

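RNA of 24 left ventricles was hybridised to 1-colour Agilent arrays, 1 per mouse. The deposited scanner files hold, per the file headers, Agilent Feature Extraction output (version 10.5.1.1) with a processed signal intensity for each spot, which that software had background-corrected, and other marks of detection. Agilent Feature Extraction and limma are both listed, without a role, per the submitters' processing notes. Interval positions are those of mm9, per the file headers.

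From these intensity values, log2 of the processed signal minus that of each array's 75th percentile was computed over gene spots, leaving out control spots and outlier spots (0.0338% of interval values, which the fit drops). Spots of a probe were averaged, a probe had to be well above background on at least 6 of 24 arrays, and the brightest probe stood for its name. Group means of all 24 arrays were fitted with limma 3.58.1 (lmFit, eBayes) in R 4.3.3, with 5 contrasts, two-sided tests and Benjamini-Hochberg adjustment over 28235 names. The steps were tested on simulated data. A neighbour is the nearest symbol-named gene that passed the filter, by the position of its kept probe. Genes that did not pass were left out, so a nearer gene may exist. Distances run from the interval to that probe. Gene classes came from a RefSeq table of another build, used for names only.

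In each contrast the 10 highest and 10 lowest called intervals above background on all 6 arrays of a group are named (the 5 smallest p where none passed). In the CON comparison, up to 8 intervals kept on both strands with a called strand and up to 6 with a called neighbour are added, with neighbours, Slc2a4 and called members of the noncoding list. Names outside this rule were chosen after their values were seen: the called intervals whose probe overlaps a gene's probe, and 2 of the strand differences. The intervals and lists were chosen with earlier results of these data known. Nothing says that mice of a group were independent of their brothers in other groups, so p-values measure the spread between these mice. Alternatives were quantile and median scaling, normexp (offset 50), other filters, the mean of probes, slide and replicate blocks, array weights, fits of the compared groups alone, and leaving out slide 4 or 1 mouse.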

Additional observations from a re-analysis of the deposited data

Results flagged for a closer look

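In groups of 6 mice, a value was taken as standing apart when its gap to the nearest other value took up more of the group's whole range than Dixon's critical value for 6 values allows. Chance gives this in about 1 in 20 groups, and 18 of the 247 groups examined had it.

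Among the intervals, mG4H STZ replicate 3 stood apart in 3 names: chr19:36699712-36763966 R at 2.79 (others 1.63 to 2.03), chr1:183783306-183834531 R at 1.54 (others 0.13 to 0.47) and chr3:146629425-146649125 R at -2.01 (others -2.83 to -2.53). In mG4H VEH, replicate 3 stood apart in chr11:82588507-82594501 R at -1.95 and in chr4:11899775-11931875 F at 0.80 (others 1.02 to 1.07), and replicate 4 in chr3:30754871-30776438 F at -7.29 (others -5.67 to -5.27). In chr2:157838320-157853495 F, CON VEH replicate 6 was at -2.15 (others -1.77 to -1.71) and CON STZ replicate 5 at -3.70 (others -2.47 to -2.32), each lower than the rest of its group. In chr15:32167516-32174417 F, CON VEH replicate 6 was at -2.35, above the others, and in chr17:15132576-15147002 R, CON STZ replicate 6 was at -5.12, below the others.

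Among neighbouring genes, Ttll7 had such a value in 3 groups, at -0.10 in CON STZ replicate 3, -1.26 in mG4H VEH replicate 3 and 0.07 in mG4H STZ replicate 5, each above the rest of its group. Zfp385b was at -4.73 in CON VEH replicate 3 (others -1.78 to -1.26). Enah was at 2.22 in CON VEH replicate 2, Pim1 at -2.41 in CON VEH replicate 1 and Zfp830 at 0.78 in mG4H VEH replicate 4. Slc2a4 was at 6.33 in mG4H VEH replicate 3 (others 6.52 to 6.61).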

How the results depend on the processing

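Of the 338 values of the 31 called results for named intervals under the alternatives, 269 kept their direction and side of the threshold, 69 kept direction only and 0 reversed. All 45 intervals called after STZ in CON kept their direction in each alternative that measured them. Causes were not tested. The counts below are of intervals, strand differences or listed genes alone. The share of all names that passed under each alternative is not given beside them. Whether intervals gained or lost calls more than other names did is therefore not shown.

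The count after STZ in CON (45) was 3 with median scaling, 25 without slide 4 and 90 with array weights, and 22 to 64 without 1 mouse. After STZ in mG4H (4) it was 7 with quantile normalization, 0 with median scaling, 2 with probes above background on at least 1 array, 1 with the mean of probes, 2 with the slide block, 2 without slide 4, 8 with array weights and 0 in a fit of the 2 groups compared, and 2 to 20 without 1 mouse. Between genotypes under VEH (1) it was 0 with normexp, 0 with the mean of probes, 4 with array weights and 2 in the fit of 2 groups, and 1 to 2 without 1 mouse. Under STZ (1) it was 0 with normexp, 0 with the mean of probes, 0 in the fit of 2 groups, and 0 to 1 without 1 mouse. The difference of STZ effects stayed at 0, and for it no fit of 2 groups exists.

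Strand differences after STZ in CON (4) numbered 0 with median scaling, 7 with normexp, 8 with the slide block, 2 without slide 4 and 8 with array weights, and 1 to 6 without 1 mouse. After STZ in mG4H they numbered 0 to 1 without 1 mouse. Under VEH (1) they numbered 2 with the slide block, 0 without slide 4 and 2 with array weights, and 0 to 1 without 1 mouse. Under STZ (1) they numbered 0 with quantile normalization, normexp, array weights, without slide 4 and in the fit of 2 groups, and 0 to 1 without 1 mouse. Of the listed noncoding genes, 2 passed in CON with quantile normalization, and 0 with median scaling in CON or mG4H, and 0 with the slide block in mG4H.

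With the replicate number as a block, the counts were 38, 4, 1 and 0 in the order above, against 45, 4, 1 and 1, and the strand difference under STZ was 0. Of 6 same-numbered pairs per comparison, 2, 3, 3 and 3 deviated together with a correlation over 0.1 (range -0.60 to 0.664), so the numbers were not taken to pair the mice.

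Intervals lie nearer to background than genes (median -2.87 against -0.03), which limits what these arrays can resolve. Normexp, whose offset compresses dim values, made the differences of several dim intervals smaller, as given with them. Median scaling moved the median of all names by -0.04 in the comparison of STZ with VEH in CON. In that of mG4H the shift was larger, and chr19:36699712-36763966 R went from 0.97 to 0.86.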
